A study of Homo sapiens with 12 samples.

Results

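The MHC class I antigen presentation genes described here were 9 genes chosen by symbol: HLA-B, HLA-C, HLA-E, HLA-F, B2M, TAP1, TAP2, TAPBP and ERAP1. All 9 had a row in both deposited tables, out of 34694 gene symbols in either table and 26115 in both, and all 9 passed the filter, a mean of 1 FPKM or more (fragments per kilobase, relative to the sequencing depth of the library). The list holds 4 class I heavy chain genes and is not a complete list of them. Messenger RNA had been sequenced from KYSE410 and KYSE150, established cell lines of human esophageal cancer labelled as wild type. Each line was cultured in 0.5% oxygen for 48 h (hypoxia) or in 21% oxygen (normoxia), with 3 libraries in each of the 4 groups. The sample labels give normoxia a time point of 0 while the series' design text gives 48 h for both oxygen levels, which leaves the duration of the normoxic culture unclear. The labels do not say whether the 3 libraries of a group are separate cultures, and a p-value here measures only their spread, which may be technical.

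Class I molecules carry short peptides from inside the cell to its surface, where CD8 T cells and natural killer (NK) cells read them. A polymorphic or conserved heavy chain pairs with the invariant light chain β2-microglobulin. The proteasome cuts cytosolic proteins, the TAP1 and TAP2 transporter carries the peptides into the endoplasmic reticulum (ER), ERAP1 trims them, and tapasin (TAPBP) with calreticulin and ERp57 holds the empty heavy chain beside the transporter until a peptide fits. Interferons raise these genes through IRF and STAT factors, and NLRC5 with the RFX complex acts on the conserved promoter module of the heavy chain genes and B2M. Tumours, squamous carcinomas among them, often lower class I genes, and oxygen shortage is a common state of solid tumours.

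Of the 9 genes, 7 lie on chromosome 6 in GENCODE 29 on GRCh38: HLA-F at 29722775 to 29738528, HLA-E at 30489467 to 30494205, HLA-C at 31268749 to 31272130, HLA-B at 31269491 to 31357188, TAP2 at 32821833 to 32838780, TAP1 at 32845209 to 32853978 and TAPBP at 33299694 to 33314387. B2M lies on chromosome 15 at 44711487 to 44718877 and ERAP1 on chromosome 5 at 96760810 to 96808100. RefSeq windows (GRCh38.p14) that run from 250 bases before to 50 bases after a gene's start were available for 8 of the 9 genes, HLA-E being the other. The stretches below are shown because they hold the letters TTTCNNTT, a core shared by many interferon-responsive elements, on either strand. Capitals mark each match to TTTCNNTT or to its reverse complement AANNGAAA, and neighbouring matches overlap in B2M, TAP1, TAP2 and TAPBP. Each sequence runs 5′ to 3′ on the gene's own strand, with positions counted from the RefSeq start.
HLA-B, chr6:31357270-31357359, minus strand, -180 to -91: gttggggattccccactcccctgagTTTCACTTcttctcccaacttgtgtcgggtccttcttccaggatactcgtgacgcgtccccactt
HLA-C, chr6:31272183-31272272, minus strand, -180 to -91: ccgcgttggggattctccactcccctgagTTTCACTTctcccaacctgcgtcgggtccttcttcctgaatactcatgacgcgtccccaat
HLA-F, chr6:29723264-29723293, plus strand, -170 to -141: ccatctccccagagTTTCTCTTtctctccc
B2M, chr15:44711357-44711416, plus strand, -160 to -101: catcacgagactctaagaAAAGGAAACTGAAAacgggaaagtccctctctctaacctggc
TAP1, chr6:32853815-32853844, minus strand, -140 to -111: ggccgcTTTCGATTTCGCTTtcccctaaat
TAP2, chr6:32838780-32838809, minus strand, -70 to -41: ggctggggAAGCGAAAGCGAAAgctgcccg
TAPBP, chr6:33314079-33314108, minus strand, -30 to -1: ccctttggaggaAAGTGAAAGTGAAAggag

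A longer form, TTTC followed after any 2 bases by a second TTTC and searched on both strands, was found in 6 of the 8 genes with a window (HLA-F, B2M, TAP1, TAP2, TAPBP and ERAP1), while 3.6% of all 35116 RefSeq windows of the same length held it. In ERAP1 this match lay at 3 to 12, after the start. The short form was in all 8 genes and in 22.8% of all windows. HLA-B and HLA-C, whose 90-base stretches are alike over most of their length, held the short form alone. GGG, any 2 bases, TT, any base and CC, a pattern that resembles the NF-κB element and was searched on both strands, was found in HLA-B, B2M, TAP1, TAPBP and ERAP1 and in 5.7% of all windows. TGACGC, the core of the X2 box bound by CREB and ATF factors, was found in HLA-B, HLA-C and TAP2 and in 9.1% of all windows. Hypoxia response elements have ACGTG or GCGTG as their core. On both strands, ACGTG was in none of the 8 genes and in 21.4% of all windows, and GCGTG was in 5 of the 8 (HLA-B, HLA-F, B2M, TAP1 and ERAP1) and in 36.5% of all windows. A match describes the letters and does not show a bound site, and TAP1 and ERAP1 had 2 windows each.

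The 12 libraries had summed FPKM of 351501 to 425094 and between 22787 and 24667 genes above 0; their depth is unknown because FPKM values carry no counts. NDRG1, a gene well known to rise in low oxygen, averaged 1194 FPKM in hypoxia and 16.0 FPKM in normoxia in KYSE410, and 1072 and 71.1 FPKM in KYSE150 hypoxia and normoxia. Of 10 epithelial markers, 9 averaged at least 1 FPKM in KYSE410 and 5 in KYSE150, where the squamous and junction genes KRT5, KRT14, TP63 and CDH1 were all below 0.5 FPKM in every library. PTPRC, which marks leukocytes, did not exceed 0.0486 FPKM in any library; CD68, the only leukocyte marker of 10 above 1 FPKM in all 4 groups, averaged 83.4 and 31.5 FPKM in KYSE410 hypoxia and normoxia and 28.4 and 16.3 FPKM in KYSE150 hypoxia and normoxia. KYSE150 normoxia replicate 2 stood apart: its log2 values differed from the other 2 libraries of its group with SDs of 0.339 and 0.369 (the other pairs within groups gave 0.153 to 0.197), and its deviation fell with transcript length across genes (Spearman rho -0.642). The hypoxia change itself also fell with transcript length across genes in KYSE410 (rho -0.268) and had a rho of 0.064 in KYSE150. The sheet numbers in the labels are 56 to 58 for KYSE410 hypoxia, 38 to 40 for KYSE410 normoxia, 53 to 55 for KYSE150 hypoxia and 50 to 52 for KYSE150 normoxia, so oxygen and library numbering cannot be told apart in either line.

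The class I genes did not move as a block in hypoxia. HLA-E was the gene that rose in both lines, TAP2 was the largest fall in KYSE410, and TAPBP and TAP1 rose in KYSE150. In KYSE410, 2 of the 9 genes rose (HLA-C and HLA-E) and 4 fell (HLA-F, TAP1, TAP2 and ERAP1) at a Benjamini-Hochberg adjusted p under 0.05 by limma, in a background where 83.1% of 12054 tested genes were called, 31.2% higher and 51.9% lower. In KYSE150, 3 rose (HLA-E, TAP1 and TAPBP) and 1 fell (B2M), in a background where 62.3% of 12692 genes were called, 23.5% higher and 38.8% lower. The groups of the 2 oxygen levels did not overlap for 7 of the 9 genes in KYSE410 and 7 of the 9 in KYSE150, against 84.6% and 69.6% of all tested genes, so these shares are near the background. The median log2 change of the 9 genes was -0.05 in KYSE410 and -0.08 in KYSE150, against -0.21 and -0.13 over all genes tested. That median depends on scaling: with median-of-ratios factors it was -0.03 in KYSE410 and 0.02 in KYSE150, and the calls over all genes were then 4862 higher and 5171 lower in KYSE410 (3763 and 6254 as deposited) and 4017 higher and 3680 lower in KYSE150 (2981 and 4925 as deposited). Changes are therefore also given below relative to the median of all genes.

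**Figure D1:**
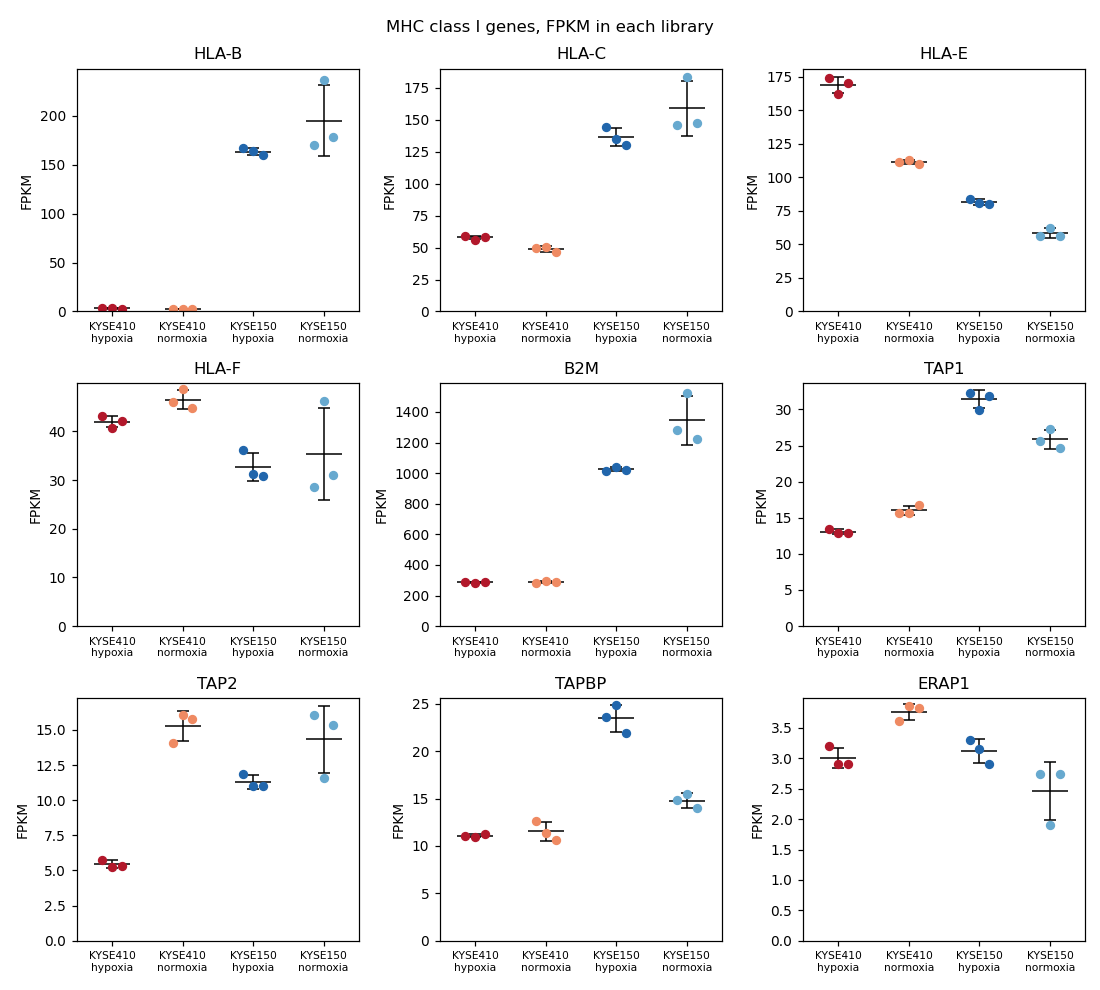
FPKM of the 9 class I genes (linear axes from 0) in each library of KYSE410 hypoxia, KYSE410 normoxia, KYSE150 hypoxia and KYSE150 normoxia, with points for libraries and black lines for the mean and SD (n = 3). HLA-E was higher in hypoxia in both lines, TAP2 averaged 5.44 and 15.3 FPKM in KYSE410 hypoxia and normoxia, and HLA-B stayed below 3.3 FPKM in all KYSE410 libraries.

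HLA-E is the conserved heavy chain that shows leader peptides of other class I chains to the NKG2A and NKG2C receptors of NK cells. In KYSE410 it had 174.2, 162.2 and 170.4 FPKM in hypoxia, against 111.5, 113.0 and 109.6 FPKM in normoxia. KYSE150 had 84.2, 80.5 and 79.8 FPKM of HLA-E in hypoxia, against 56.5, 62.4 and 56.4 FPKM in normoxia. All hypoxic libraries lay above all normoxic libraries of their own line. HLA-E rose by 0.60 ± 0.04 (log2 change ± SE) in KYSE410 (limma adjusted p = 6.906e-07) and by 0.47 ± 0.07 in KYSE150 (limma adjusted p = 7.766e-04). Relative to the median of all genes these rises were 0.81 and 0.61. The rise kept its call in both lines under every alternative tried, between 0.32 and 0.81 in KYSE410 and between 0.45 and 0.65 in KYSE150.

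HLA-C is a classical heavy chain and a ligand of killer immunoglobulin-like receptors. In KYSE410 it had 59.1, 56.2 and 58.5 FPKM in hypoxia, against 49.4, 50.9 and 46.6 FPKM in normoxia. The groups did not overlap, and the rise of 0.24 ± 0.04 passed the test (limma adjusted p = 7.127e-04), although it was 0.000 when libraries were scaled to a common sum (limma adjusted p = 0.993). KYSE150 had 144.5, 135.1 and 130.4 FPKM of HLA-C in hypoxia, against 145.7, 183.3 and 147.7 FPKM in normoxia. These groups also did not overlap, but they were separated by only 1.2 FPKM at their nearest libraries, and the log2 change of -0.21 ± 0.10 missed the threshold (limma adjusted p = 0.117). Without normoxia replicate 2 that change was -0.10 (limma adjusted p = 0.0779). It was called with a common sum and in the joint fit (-0.20 and -0.21, limma adjusted p = 0.0340 and 0.0376).

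HLA-B, the other classical heavy chain of the list, was scarce in KYSE410 at both oxygen levels. It had 3.29, 3.16 and 2.98 FPKM in KYSE410 hypoxia, against 2.93, 2.72 and 2.68 FPKM in KYSE410 normoxia. In KYSE150 it had 167.0, 163.8 and 159.8 FPKM in hypoxia, against 170.2, 236.7 and 178.0 FPKM in normoxia. In neither line did the oxygen groups overlap, and in neither did HLA-B pass the test: the log2 change was 0.13 ± 0.06 in KYSE410 (limma adjusted p = 0.0782) and -0.24 ± 0.13 in KYSE150 (limma adjusted p = 0.136). The KYSE410 change was called after median-of-ratios scaling and under quantile normalization (0.29 and 0.44, limma adjusted p = 0.00258 and 1.747e-04). With a common sum it was -0.048 (limma adjusted p = 0.501). Without KYSE150 normoxia replicate 2 the KYSE150 change was -0.09 (limma adjusted p = 0.0541). The KYSE150 fall of HLA-B was called with a common sum, under quantile normalization and in the joint fit (limma adjusted p = 0.0492, 0.0308 and 0.0497). Heavy chain values depend on how reads from alleles unlike the reference genome were aligned, which is not given in the sources used here. Stretches of 50 bases shared with another of the 4 heavy chain transcripts made up 2.2% of HLA-B, 3.7% of HLA-C, 1.4% of HLA-E and 1.5% of HLA-F. The HLA-B annotation also overlaps HLA-C by 2640 bases on the same strand.

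HLA-F is a non-classical heavy chain that can reach the surface without peptide and binds NK receptors. In KYSE410 it had 43.1, 40.8 and 42.1 FPKM in hypoxia, against 46.1, 48.8 and 44.8 FPKM in normoxia, with no overlap. The fall of 0.15 ± 0.04 on the log2 scale passed the test (limma adjusted p = 0.0110), but the value was 0.07 above the median of all genes, and it turned to 0.061 (limma adjusted p = 0.155) after median-of-ratios scaling. In KYSE150 it had 36.1, 31.2 and 30.9 FPKM in hypoxia, against 28.7, 46.2 and 31.1 FPKM in normoxia. Those groups overlapped, normoxia replicate 2 was the highest library, and the log2 change was -0.08 ± 0.17 with it (limma adjusted p = 0.700) and 0.12 without it (limma adjusted p = 0.165). HLA-F-AS1, annotated on the opposite strand over 11928 bases of HLA-F, averaged 2.33 FPKM in KYSE410 hypoxia and 0.429 FPKM in KYSE410 normoxia. Its KYSE150 means were 1.34 FPKM in hypoxia and 0.289 FPKM in normoxia. The strand setting of the counting is not given in the sources used here, so reads of the pair may not have been told apart.

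B2M encodes β2-microglobulin, the light chain of every class I complex, and was the most abundant member in all 4 groups. The KYSE410 values were 288.2, 282.1 and 288.9 FPKM in hypoxia, against 281.8, 294.0 and 285.2 FPKM in normoxia. These groups overlapped and the log2 change was -0.003 ± 0.03 (limma adjusted p = 0.931), though scaling moved it between -0.62 (quantile normalization) and 0.21 (median of ratios). The KYSE150 values were 1014, 1042 and 1021 FPKM in hypoxia, against 1285, 1526 and 1224 FPKM in normoxia. Every hypoxic library was below every normoxic one, and B2M fell by 0.38 ± 0.11 on the log2 scale (limma adjusted p = 0.0183). That call was lost after median-of-ratios scaling (-0.21, limma adjusted p = 0.195), without a filter on low values, and when hypoxia replicate 1, 2 or 3 was left out, with log2 changes of -0.38, -0.40 and -0.38 (limma adjusted p = 0.0750, 0.0644 and 0.0759). Without normoxia replicate 2 the B2M change in KYSE150 was -0.29 and kept its call (limma adjusted p = 5.947e-05).

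TAP1 and TAP2 encode the subunits of the peptide transporter, and their values parted in both lines. TAP2 in KYSE410 had 5.78, 5.25 and 5.30 FPKM in hypoxia, against 14.1, 16.1 and 15.7 FPKM in normoxia. TAP2 in KYSE150 had 11.9, 11.0 and 11.0 FPKM in hypoxia, against 16.0, 11.6 and 15.3 FPKM in normoxia. The KYSE410 groups were far apart, while in KYSE150 normoxia replicate 2 lay within the hypoxic range. TAP2 fell by 1.34 ± 0.06 on the log2 scale in KYSE410 (limma adjusted p = 1.775e-07), to 35.6% of the normoxic mean, and 7.6% of tested genes had a lower log2 change. This fall was called under every alternative tried, between -1.55 and -0.95. In KYSE150 the change of -0.30 ± 0.12 missed the threshold (limma adjusted p = 0.0561); without normoxia replicate 2 it was -0.44 (limma adjusted p = 2.370e-04). In the annotation, another protein-coding gene, AL669918.1, covers TAP2 on the same strand.

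TAP1 in KYSE410 had 13.4, 12.9 and 12.9 FPKM in hypoxia, against 15.7, 15.6 and 16.8 FPKM in normoxia. TAP1 in KYSE150 had 32.3, 29.97 and 31.9 FPKM in hypoxia, against 25.6, 27.3 and 24.6 FPKM in normoxia. In neither line did the groups overlap, and the directions were opposite. TAP1 fell by 0.27 ± 0.04 on the log2 scale in KYSE410 (limma adjusted p = 4.261e-04), which was 0.06 below the median of all genes; median-of-ratios scaling, quantile normalization and removal of the transcript length trend left -0.076, -0.046 and -0.070 with no call. TAP1 rose by 0.27 ± 0.07 in KYSE150 (limma adjusted p = 0.0118), and the call was lost when hypoxia replicate 1 or 3 was left out (0.25 and 0.26, limma adjusted p = 0.0512 and 0.0521). Without normoxia replicate 2 the TAP1 rise in KYSE150 was 0.31 and kept its call (limma adjusted p = 7.230e-04). TAP1 overlaps the immunoproteasome gene PSMB9 over 8770 bases on the opposite strand, and PSMB9 fell in both lines (described below with its list).

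TAPBP encodes tapasin, which bridges the transporter and the empty heavy chain. The KYSE410 libraries had 11.1, 10.9 and 11.3 FPKM in hypoxia, against 12.6, 11.4 and 10.6 FPKM in normoxia, and the groups overlapped. The KYSE150 libraries had 23.6, 24.9 and 22.0 FPKM in hypoxia, against 14.9, 15.5 and 13.97 FPKM in normoxia, far apart. TAPBP rose by 0.63 ± 0.08 in KYSE150 (limma adjusted p = 2.560e-04), the largest rise among the 9 genes in that line, and kept the call under every alternative tried (0.59 to 0.80). In KYSE410 the log2 change was -0.05 ± 0.06 (limma adjusted p = 0.461), and it turned to 0.14, 0.23 and 0.23 after median-of-ratios scaling, quantile normalization and removal of the length trend, each with a call.

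ERAP1 encodes the ER aminopeptidase that trims peptides to class I length, and was the least abundant member except for HLA-B in KYSE410 normoxia. In KYSE410 it had 3.20, 2.91 and 2.92 FPKM in hypoxia, against 3.61, 3.86 and 3.83 FPKM in normoxia, with no overlap. In KYSE150 it had 3.30, 3.15 and 2.91 FPKM in hypoxia, against 2.74, 1.91 and 2.74 FPKM in normoxia, also with no overlap. ERAP1 fell by 0.25 ± 0.06 on the log2 scale in KYSE410 (limma adjusted p = 0.00468), 0.04 below the median of all genes, but the value was -0.087 after median-of-ratios scaling and turned to 0.085 and 0.13 under quantile normalization and removal of the length trend, with no call. In KYSE150 the change of 0.26 ± 0.12 missed the threshold (limma adjusted p = 0.0927), and it was 0.14 without normoxia replicate 2 (limma adjusted p = 0.146). The KYSE150 change was called in 4 of 14 alternatives. It was 0.39 after median-of-ratios scaling, 0.39 under quantile normalization, 0.36 with the length trend removed and 0.26 in the joint fit (limma adjusted p = 0.0182, 0.0125, 0.00638 and 0.0277). The annotation places CAST on the opposite strand over 18786 bases of ERAP1, and CAST averaged 107.5 FPKM in KYSE150 hypoxia and 86.9 FPKM in KYSE150 normoxia.

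**Figure D2:**
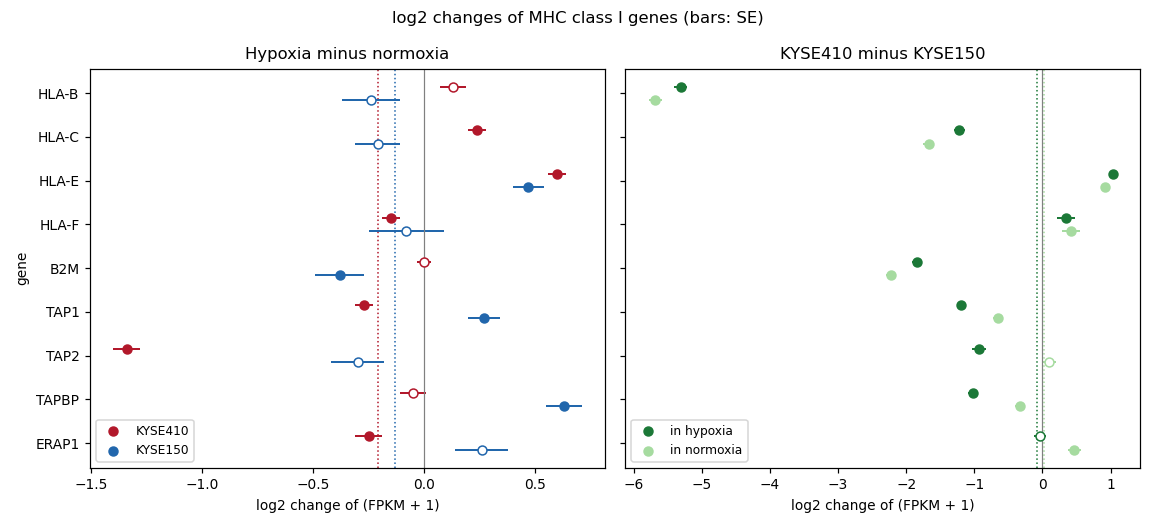
Left, log2 change of FPKM + 1 in hypoxia minus normoxia for each class I gene in KYSE410 and KYSE150; right, KYSE410 minus KYSE150 in hypoxia and in normoxia. Points are limma estimates, bars are SE, filled points passed the threshold, and dotted lines are the medians of all genes tested in the matching colour. HLA-E rose in both lines, TAP2 fell by 1.34 in KYSE410, and HLA-B was 5.31 and 5.68 lower in KYSE410 than in KYSE150 in hypoxia and normoxia.

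The lines differed in their response for 7 of the 9 genes, tested directly as the interaction of line and oxygen in a joint limma fit of all 12 libraries, in a background where 63.3% of 12653 genes were called (27.3% higher and 36.0% lower in KYSE410). Relative to KYSE150, the KYSE410 response was lower for TAP2 by 1.03 ± 0.14 on the log2 scale, for TAPBP by 0.68 ± 0.10, for TAP1 by 0.55 ± 0.08 and for ERAP1 by 0.51 ± 0.13 (limma adjusted p = 6.351e-05, 8.531e-05, 8.837e-05 and 0.00554). The ERAP1 difference was -0.21 with the length trend removed and then lost its call (limma adjusted p = 0.0847). The KYSE410 response was higher for HLA-C by 0.45 ± 0.12, for B2M by 0.38 ± 0.11 and for HLA-B by 0.37 ± 0.14 (limma adjusted p = 0.00499, 0.00762 and 0.0356). The B2M difference turned to -0.091 under quantile normalization, and the HLA-B difference lost its call in 10 of 20 alternatives and was 0.22 without KYSE150 normoxia replicate 2 (limma adjusted p = 0.00860). For HLA-E the difference was 0.12 ± 0.08 (limma adjusted p = 0.179), a value that scaling moved between -0.32 and 0.20 and which does not show that the lines responded alike. For HLA-F it was -0.07 ± 0.19 (limma adjusted p = 0.777), and -0.27 without KYSE150 normoxia replicate 2 (limma adjusted p = 0.0193). The differences for TAP1, TAP2, TAPBP and HLA-C kept their calls under all 20 alternatives. The median over the 9 genes was -0.07, against -0.09 over all genes tested.

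The class I genes were also compared between the lines at each oxygen level. The tables were deposited separately, so these contrasts assume that FPKM is comparable across them. In hypoxia, KYSE410 had 2 of the 9 genes above KYSE150 and 6 below it, in a background where 80.2% of 12653 genes were called (36.6% higher and 43.6% lower). In normoxia, KYSE410 had 3 above and 5 below, against a background of 79.2% called (40.4% higher and 38.8% lower). The lines did not overlap for 8 of the 9 genes in hypoxia and 7 of the 9 in normoxia, against 85.7% and 79.0% of all genes tested. The shares called and the shares without overlap were thus near the background. The median log2 difference of the 9 genes was -1.02 in hypoxia and -0.33 in normoxia, against -0.08 and 0.02 over all genes tested.

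HLA-B was the outlying gene: its mean in KYSE410 was 52.02-fold lower than in KYSE150 in hypoxia and 70.2-fold lower in normoxia, with log2 differences of -5.31 ± 0.10 and -5.68 ± 0.10 (limma adjusted p = 1.186e-13 and 6.576e-14). At most 0.3% of tested genes had a lower difference. B2M was 3.58-fold lower in KYSE410 than in KYSE150 in hypoxia and 4.69-fold lower in normoxia (log2 differences of -1.84 ± 0.07 and -2.22 ± 0.07). HLA-C was 2.36-fold lower in hypoxia and 3.25-fold lower in normoxia. HLA-E went the other way and was 2.07-fold higher in KYSE410 than in KYSE150 in hypoxia and 1.91-fold higher in normoxia (log2 differences of 1.04 ± 0.05 and 0.92 ± 0.05). These HLA-B, HLA-C, HLA-E and B2M contrasts passed the limma threshold under every alternative tried. The conserved HLA-E was thus the heavy chain with the highest FPKM of the 4 in KYSE410 and the third in KYSE150.

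TAP1, TAP2 and TAPBP differed more between the lines in hypoxia than in normoxia, as their interaction values above give. TAP2 averaged 5.44 ± 0.289 FPKM in KYSE410 hypoxia and 11.3 ± 0.494 FPKM in KYSE150 hypoxia (SD, n = 3), a log2 difference of -0.93 ± 0.10 (limma adjusted p = 2.351e-06). In normoxia TAP2 averaged 15.3 ± 1.06 FPKM in KYSE410 and 14.3 ± 2.38 FPKM in KYSE150, groups that overlapped with a log2 difference of 0.10 ± 0.10 (limma adjusted p = 0.377). TAPBP was lower in KYSE410 by 1.02 ± 0.07 in hypoxia and by 0.33 ± 0.07 in normoxia, and TAP1 by 1.20 ± 0.06 and 0.66 ± 0.06, on the log2 scale (limma adjusted p at most 7.134e-04). ERAP1 showed the opposite order: it was higher in KYSE410 by 0.47 ± 0.09 in normoxia (limma adjusted p = 5.679e-04), while in hypoxia the difference was -0.04 ± 0.09 (limma adjusted p = 0.713). HLA-F was higher in KYSE410 by 0.35 ± 0.13 in hypoxia and 0.42 ± 0.13 in normoxia (limma adjusted p = 0.0293 and 0.0128), but the normoxic groups overlapped and the hypoxic call was lost in 6 of 20 alternatives. The normoxic call was lost without KYSE150 normoxia replicate 1 (0.29, limma adjusted p = 0.0621) and without replicate 3 (0.35, limma adjusted p = 0.0505).

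In order of FPKM, the KYSE410 hypoxia means ran B2M 286.4, HLA-E 168.9, HLA-C 57.9, HLA-F 42.0, TAP1 13.1, TAPBP 11.1, TAP2 5.44, HLA-B 3.14 and ERAP1 3.01. Only HLA-B and ERAP1 had overlapping libraries among neighbours in that order. In KYSE150 hypoxia the order was B2M 1025, HLA-B 163.5, HLA-C 136.7, HLA-E 81.5, HLA-F 32.7, TAP1 31.4, TAPBP 23.5, TAP2 11.3 and ERAP1 3.12, with HLA-F and TAP1 overlapping. In normoxia the KYSE410 order was B2M 287.0, HLA-E 111.4, HLA-C 49.0, HLA-F 46.6, TAP1 16.0, TAP2 15.3, TAPBP 11.5, ERAP1 3.77 and HLA-B 2.78, with overlap between HLA-C and HLA-F and between TAP1 and TAP2. The KYSE150 normoxia order was B2M 1345, HLA-B 195.0, HLA-C 158.9, HLA-E 58.4, HLA-F 35.3, TAP1 25.8, TAPBP 14.8, TAP2 14.3 and ERAP1 2.46, with overlap between HLA-B and HLA-C and between TAPBP and TAP2. TAP2 thus stood beside TAP1 in KYSE410 normoxia, overlapped TAPBP in KYSE150 normoxia and lay below TAPBP in both hypoxic groups. FPKM is per transcript length, so the order rests on the lengths the authors used.

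Ratios of 2 genes within a library do not depend on how libraries are scaled to each other. They were chosen after the values had been seen, so they are descriptions. The TAP1 to TAP2 ratio of FPKM was 2.32, 2.46 and 2.44 in KYSE410 hypoxia, against 1.12, 0.973 and 1.06 in KYSE410 normoxia. In KYSE150 it was 2.72, 2.72 and 2.89 in hypoxia, against 1.60, 2.35 and 1.61 in normoxia. The longest annotated transcripts have 2959 bases for TAP1 and 5684 bases for TAP2, and the part of the transcript length trend in this ratio was not tested. The ratio was higher in every hypoxic library of both lines, and KYSE150 normoxia replicate 2 came nearest to the hypoxic libraries. The HLA-E to HLA-C ratio was 2.95, 2.89 and 2.91 in KYSE410 hypoxia, against 2.26, 2.22 and 2.36 in KYSE410 normoxia, and 0.583, 0.596 and 0.612 in KYSE150 hypoxia, against 0.388, 0.341 and 0.382 in KYSE150 normoxia. HLA-E therefore gained on HLA-C in both lines although HLA-C itself had log2 changes of opposite sign. The HLA-B to HLA-C ratio overlapped between oxygen levels in both lines, with means of 0.0543 and 0.0568 in KYSE410 hypoxia and normoxia and of 1.20 and 1.22 in KYSE150 hypoxia and normoxia. For each ratio whose groups did not overlap, the exact two-sided permutation p was 0.1, the smallest that 3 against 3 libraries allow.

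**Figure D3:**
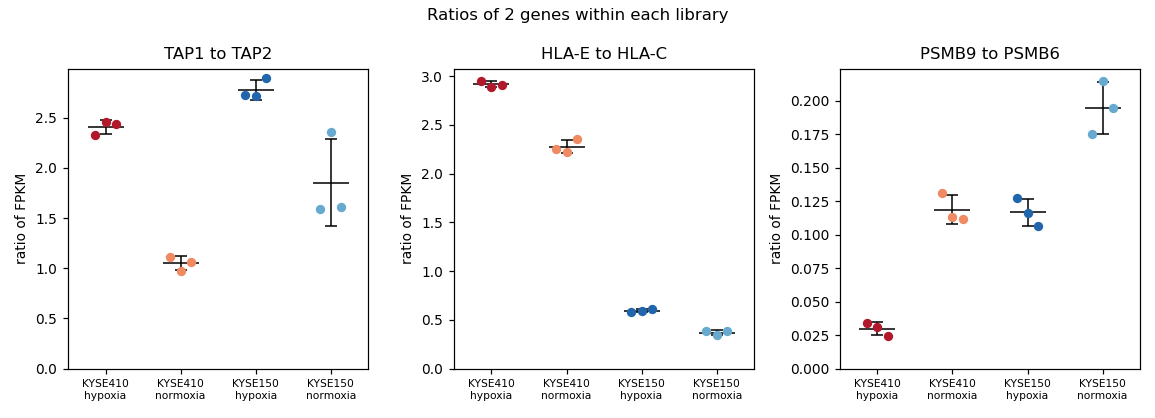
Ratios of FPKM of 2 genes within each library (linear axes from 0), with points for libraries and black lines for the mean and SD (n = 3) in KYSE410 hypoxia, KYSE410 normoxia, KYSE150 hypoxia and KYSE150 normoxia. TAP1 to TAP2 and HLA-E to HLA-C were higher in hypoxia and PSMB9 to PSMB6 was lower in hypoxia in both lines, with no overlap between oxygen levels within a line.

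The genes around the class I pathway were described with 9 further lists holding 103 genes. Their counts are set beside the shares of all tested genes called, which were 31.2% higher and 51.9% lower in KYSE410 and 23.5% higher and 38.8% lower in KYSE150. Genes of peptide loading and ER folding moved apart in the lines. In KYSE410, 9 of 11 tested members rose and 2 fell (31.2% and 51.9% of all genes): CALR (calreticulin) averaged 238.2 FPKM in hypoxia and 75.6 FPKM in normoxia, a log2 change of 1.64 ± 0.04, HSP90B1 rose by 1.19 and PDIA3 (ERp57) by 0.89, while the intramembrane protease SPPL3 fell by 0.88 on the log2 scale (limma adjusted p at most 4.974e-06). In KYSE150, 1 of 10 rose (CALR, by 0.42) and 5 fell (23.5% and 38.8% of all genes), among them ERP44 by 0.66, PDIA4 by 0.65, the chaperone HSPA5 by 0.52 and SPPL3 by 0.44 on the log2 scale (limma adjusted p at most 0.00515). The median change of the list was 0.62 in KYSE410 and -0.21 in KYSE150. The KYSE410 response was higher by 1.34 for HSPA5, 1.29 for PDIA4, 1.22 for CALR and 1.11 for PDIA3 (limma adjusted p at most 1.153e-06). TAPBP, which holds the empty heavy chain beside the transporter, was lower in the KYSE410 response, opposite to these chaperones, as were TAP1 and TAP2.

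Of 5 interferon-inducible proteasome genes, 3 fell in hypoxia in KYSE410, where 51.9% of all genes fell, and 4 fell in KYSE150, where 38.8% did; the KYSE410 count is near its background. PSMB9 and PSMB8 encode catalytic subunits that replace PSMB6 and PSMB5 and change which peptides are cut. PSMB9 had 4.17, 3.76 and 3.13 FPKM in KYSE410 hypoxia, against 16.3, 14.4 and 13.6 FPKM in KYSE410 normoxia, and fell by 1.75 ± 0.09 on the log2 scale (limma adjusted p = 4.169e-07). It had 9.63, 8.76 and 7.88 FPKM in KYSE150 hypoxia, against 14.8, 23.5 and 16.2 FPKM in KYSE150 normoxia, and fell by 0.95 ± 0.16 (limma adjusted p = 0.00141). In both lines the oxygen groups were apart, and the KYSE410 response was lower by 0.80 ± 0.21 (limma adjusted p = 0.00506). The genes that fell were 3 in KYSE410 (PSMB9, PSMB8 by 0.83 and the PA28 activator gene PSME2 by 0.60) and 4 in KYSE150 (PSMB9, PSME2 by 0.68, PSMB8 by 0.62 and PSME1 by 0.39; limma adjusted p at most 0.00709), and none rose in either line. PSMB10 had log2 changes of -0.14 in KYSE410 and -0.16 in KYSE150, and PSME1 of -0.05 in KYSE410, with no call (limma adjusted p = 0.144, 0.324 and 0.455). The PSME1 call in KYSE150 was lost after median-of-ratios scaling (-0.22, limma adjusted p = 0.0945). The ratio of PSMB9 to its constitutive counterpart PSMB6 averaged 0.0299 in KYSE410 hypoxia and 0.119 in KYSE410 normoxia, and 0.117 in KYSE150 hypoxia and 0.195 in KYSE150 normoxia, without overlap in either line. Smaller shifts, also without overlap, were seen for PSMB8 to PSMB5 and PSMB10 to PSMB7. In hypoxia and normoxia, PSMB8 to PSMB5 averaged 0.193 and 0.305 in KYSE410 and 0.886 and 1.01 in KYSE150. PSMB10 to PSMB7 averaged 0.0489 and 0.0647 in KYSE410 and 0.0257 and 0.0317 in KYSE150. Of 7 constitutive proteasome genes, 2 rose and 3 fell in KYSE410 (31.2% and 51.9% of all genes). In KYSE150 none rose and 4 fell (23.5% and 38.8% of all genes). The medians were -0.01 and -0.43. PSME3 fell by 1.07 in KYSE410 and 1.32 in KYSE150, and PSMA3 by 0.57 and 0.68, on the log2 scale (limma adjusted p at most 0.001244). PSMA7 rose by 0.51 in KYSE410 (limma adjusted p = 9.697e-06). Falls were thus not particular to the interferon-inducible genes.

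Among the transcription regulators of class I genes, 11 of 15 tested fell and 2 rose in KYSE410 (51.9% and 31.2% of all genes), with a list median of -0.70, against -0.21 over all genes. RFX5, RFXAP and CREB1, which bind the heavy chain promoter module, fell by 1.48, 1.19 and 1.16 on the log2 scale, and NLRC5, the class I transactivator, fell by 1.40 ± 0.09 to 0.876 FPKM in KYSE410 hypoxia, against 3.94 FPKM in KYSE410 normoxia (limma adjusted p at most 1.047e-05). In KYSE150, 10 of 16 fell and 3 rose (38.8% and 23.5% of all genes), with a median of -0.32, against -0.13 over all genes: BATF3 fell by 2.06, ATF1 by 1.25 and the RFX subunit RFXANK by 1.21 on the log2 scale, and IRF2 rose by 1.06 (limma adjusted p at most 2.180e-04). RFX5, RFXAP and CREB1 were called lower in KYSE150 too, with log2 changes of -0.96, -1.06 and -0.77 (limma adjusted p at most 0.001407). RFXANK and ATF1 were likewise called lower in KYSE410, with log2 changes of -1.15 and -0.84 (limma adjusted p at most 1.192e-05). The differences in response of RFXAP and RFXANK were not called (limma adjusted p = 0.444 and 0.708). NLRC5 averaged 4.78 FPKM in KYSE150 hypoxia and 4.67 FPKM in KYSE150 normoxia (log2 change 0.03 ± 0.09, limma adjusted p = 0.803), so its response was lower in KYSE410 by 1.43 ± 0.13 (limma adjusted p = 1.928e-06). The NF-κB subunit genes NFKB1 and RELA also had lower responses in KYSE410, by 1.70 and 1.14 (limma adjusted p at most 1.156e-07). Both rose in KYSE150, with log2 changes of 0.58 and 0.43, and fell in KYSE410, with -1.12 and -0.70 (limma adjusted p at most 9.070e-04). In the same KYSE410 libraries HLA-C and HLA-E were called higher in hypoxia, and HLA-F, TAP1, TAP2 and ERAP1 lower. A link between these regulators and the class I genes was not tested.

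Interferon receptor and signalling genes gave a mixed picture. In KYSE410, 3 of 13 rose (31.2% of all genes), among them IRF9 by 0.99, and 9 fell (51.9% of all genes), among them the receptor genes IFNGR1 by 0.80 and IFNAR2 by 0.76 and the feedback gene SOCS3 by 0.71 on the log2 scale (limma adjusted p at most 3.905e-05). In KYSE150, 5 of 13 rose (23.5% of all genes), among them STAT2 by 0.69 and IRF9 by 0.63, and 3 fell (38.8% of all genes), among them IFNGR1 by 0.90 and IFNAR2 by 0.55 on the log2 scale (limma adjusted p at most 0.00286). IRF9, a DNA-binding factor of interferon signalling, rose and IFNGR1 and IFNAR2 fell in both lines, while IFNGR2, the partner chain of IFNGR1, rose by 0.45 in KYSE410 and 0.34 in KYSE150, and the phosphatase gene PTPN2 by 0.52 and 0.49 (limma adjusted p at most 0.0139). IFNGR2 and PTPN2 were chosen after their values had been seen. Class II presentation genes passed the filter in KYSE150 alone, where 3 of 4 tested rose: the class II transactivator CIITA by 0.98, HLA-DRA by 0.71 and HLA-DMA by 0.47 (limma adjusted p at most 0.0103), all at 3.6 FPKM or less in every library.

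**Figure D4:**
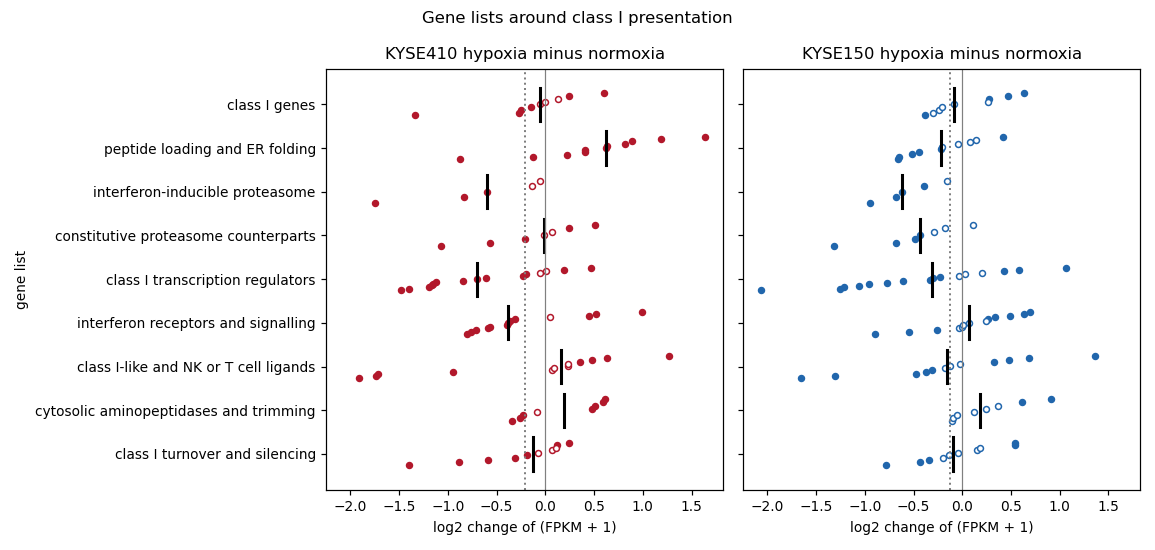
log2 change of FPKM + 1 in hypoxia minus normoxia for the class I genes and the tested members of 8 further lists, with KYSE410 on the left and KYSE150 on the right. Each point is a gene, filled where it passed the threshold; black bars are list medians and the dotted line is the median of all genes tested (-0.21 in KYSE410, -0.13 in KYSE150). Peptide loading and ER folding genes had a median of 0.62 in KYSE410 and -0.21 in KYSE150.

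Of 8 tested genes listed for peptide trimming in the cytosol, 4 rose and 3 fell in KYSE410 (31.2% and 51.9% of all genes). In KYSE150, 2 rose and none fell (23.5% and 38.8% of all genes). The list medians were 0.19 in KYSE410 and 0.18 in KYSE150, against -0.21 and -0.13 over all genes. NPEPPS, the puromycin-sensitive aminopeptidase, rose by 0.51 in KYSE410 and 0.91 in KYSE150 (limma adjusted p at most 5.947e-05). Of the genes that lower class I molecules by turnover or silencing, 2 of 10 rose and 5 fell in KYSE410 (31.2% and 51.9% of all genes), and 2 of 10 rose and 3 fell in KYSE150 (23.5% and 38.8%), shares near or below the background. In this list TMEM127 fell by 1.40 in KYSE410 and by 0.34 in KYSE150, and SUZ12, a Polycomb subunit, fell by 0.89 in KYSE410 and by 0.43 in KYSE150, on the log2 scale (limma adjusted p at most 0.00702). STUB1 was also called lower, with log2 changes of -0.59 in KYSE410 and -0.78 in KYSE150 (limma adjusted p at most 0.002749). NBR1 and WWP2 went the other way in KYSE150 and rose by 0.54 each (limma adjusted p at most 9.378e-04).

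The 9 genes were also compared with all others by their pattern over the 12 libraries, using the mean of the standardized log2 values of the members as their profile. Some members run against each other: HLA-E and B2M correlated at -0.90, HLA-F and B2M at -0.70 and HLA-C and ERAP1 at -0.69. The mean partly cancels such members, so a gene that resembles the profile need not resemble each of them. Among the 8173 genes that averaged 5 FPKM or more, the highest Pearson correlations with that profile were those of TRAF2 (0.983), LOC105379506 (0.982), LMNB1 (0.981), BIRC5 (0.979) and PINK1 (0.978). TRAF2, for example, averaged 4.96 FPKM in KYSE410 hypoxia, 9.90 in KYSE410 normoxia, 26.3 in KYSE150 hypoxia and 15.5 in KYSE150 normoxia. The 12 points fall into 4 groups of 2 lines, so these correlations carry no p-value. Among the members themselves, HLA-B, HLA-C and B2M correlated with one another at 0.99 over the 12 libraries, and HLA-E correlated with HLA-B at -0.87; both sets of points span the 2 lines.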

How the data were processed

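RNA was extracted with TRIzol and mRNA was captured on VAHTS beads from 1 ug of total RNA, per the labels' protocols. Tools named in the submitters' processing notes, without roles, were HISAT2 2.2.1, fastp 0.22.0 and bcl2fastq 2.20, with the build hg38; no source used here names the quantifier, annotation or strand setting. The authors deposited 1 table of normalized values per line, whose unit was inferred as FPKM: multiplied by the longest GENCODE 29 transcript length, a library's values summed to 0.899 to 1.003 times the total this unit implies. Low values showed no steps of whole reads (at most 5.29% of low genes in the fullest bin), so no count test was run and no counting interval is given.

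R 4.3.3 with limma 3.58.1 (two-sided empirical Bayes tests with trend) was fitted on log2(FPKM + 1), keeping genes that averaged 1 FPKM or more. Each line was fitted alone, and all 12 libraries jointly for contrasts across lines. Benjamini-Hochberg adjustment ran over all genes tested. The log2 scale with a pseudocount of 1 understates changes of low genes. The members and lists were chosen with earlier results of these data known. Named genes were the 9 members and, per list and line, up to 4 called genes with the largest change, and up to 4 with the largest difference in response; short lists may be named in full. Scripts were tested on simulated data. Same-numbered libraries did not deviate together (r = -0.069 to 0.084), so no pairing was used. Alternatives covered scaling, filters, the pseudocount, a replicate block, transcript length (known for 93.2% and 93.4% of tested genes) and leaving out each library. Tables and plots were made with pandas 2.3.3, numpy 2.4.6 and matplotlib 3.10.9 in Python 3.11.15. Promoter windows are RefSeq's.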

Additional observations from a re-analysis of the deposited data

Results flagged for a closer look

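Genes are given here whose response to hypoxia differed between the lines by the interaction of line and oxygen, as KYSE410 minus KYSE150 on the log2 scale (joint limma fit, adjusted p at most 0.0356). Among the class I genes the difference was 0.37 for HLA-B, 0.45 for HLA-C, 0.38 for B2M, -0.55 for TAP1, -1.03 for TAP2, -0.68 for TAPBP and -0.51 for ERAP1. In peptide loading and ER folding it was 1.34 for HSPA5, 1.29 for PDIA4, 1.22 for CALR and 1.11 for PDIA3. Among proteasome genes it was -0.80 for PSMB9, 0.34 for PSME1, 0.99 for PSMA7, 0.25 for PSMA1 and 0.25 for PSME3. Among regulators and signalling genes it was -1.70 for NFKB1, 1.49 for BATF3, -1.43 for NLRC5, -1.14 for RELA, -0.98 for SOCS3, -0.64 for STAT2, -0.64 for JAK1 and -0.62 for STAT3. Among ligands of NK and T cells it was -1.82 for CD274, 1.64 for ULBP1, 1.45 for ULBP2 and -1.29 for MICA. CD274, ULBP1 and BATF3 passed the filter in 1 line each. The differences for CD274 and ULBP1 largely restate that line's change. CD274 was at or below 0.208 FPKM in every KYSE150 library. ULBP1 was listed at 0 in 5 KYSE410 libraries and at 0.0279 FPKM in normoxia replicate 2. BATF3 fell by 2.06 on the log2 scale in KYSE150. In KYSE410, where it was not tested within the line, BATF3 was also lower in hypoxia, averaging 0.417 FPKM against 1.11 FPKM in normoxia. At that level the pseudocount of 1 understates the KYSE410 change, which limits the BATF3 difference. Among peptidases and turnover genes it was -0.71 for LNPEP, -0.71 for TPP2, 0.70 for DPP9, 0.64 for THOP1, -1.05 for TMEM127, -0.47 for WWP2, -0.46 for SUZ12 and -0.46 for SUSD6. Some of these differences lost their call or changed sign under alternatives: HLA-B in 10, THOP1 in 9 (7 of them with a library left out, and 0.41 with a common sum, limma adjusted p = 0.161), PSMA1 in 7, PSME1 in 3, B2M, PSME3 and SUZ12 in 2 each, and ERAP1, LNPEP and SUSD6 in 1 each.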

How the results depend on the processing

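Of the class I calls, the rise of HLA-E in both lines, of TAPBP in KYSE150 and the fall of TAP2 in KYSE410 kept their call under all alternatives. The number of class I genes called lower in KYSE150 was 1 as reported, 0 after median-of-ratios scaling and with no filter, 2 under quantile normalization and removal of the length trend, 3 with a common sum and 4 in the joint fit. With the replicate number as a block it was 2, and the block moved no other class I count. Leaving out each library gave 0 to 2. In KYSE410 the number higher (2) was 5 after median-of-ratios scaling, 1 with a common sum and 4 under quantile normalization and removal of the length trend; the number lower (4) was 1 after median-of-ratios scaling and 2 with the length trend removed. With a common sum, 1 class I gene had a higher KYSE410 response, and 1 was higher in KYSE410 hypoxia than in KYSE150 hypoxia; this hypoxia count was also 1 with no filter and 1 to 2 when libraries were left out. A filter at a mean of 5 FPKM left 6695 genes called between lines in hypoxia and 6608 in normoxia, fewer genes being tested.

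Log2 values that changed sign, none past the threshold unless said, were these. After median-of-ratios scaling: HLA-F 0.091 in KYSE150 and 0.061 in KYSE410, B2M 0.21 (called) and TAPBP 0.14 (called) in KYSE410, the HLA-F difference in response 0.012 and ERAP1 between lines in hypoxia 0.002. With a common sum: HLA-B -0.048 in KYSE410, and differences in response of -0.13 for HLA-E, -0.003 for PSMA1 and -0.0 for PSME3. Under quantile normalization: HLA-F 0.052 in KYSE150; TAPBP 0.23 (called), ERAP1 0.085, PSMB7 -0.043 and SUSD6 0.03 in KYSE410; differences of -0.32 for HLA-E (called), -0.091 for B2M and -0.12 for PSMA1; ERAP1 between lines in hypoxia 0.18. With the length trend removed: HLA-F 0.12 in KYSE150; B2M 0.16 (called), TAPBP 0.23 (called), ERAP1 0.13 and SUSD6 0.068 in KYSE410; between lines, ERAP1 0.16 in hypoxia and TAP2 -0.011 in normoxia. When libraries were left out, HLA-F in KYSE150 ranged from -0.21 to 0.12, TAP2 between lines in normoxia from -0.035 to 0.18, B2M in KYSE410 from -0.016 to 0.015, TAPBP in KYSE410 from -0.10 to 0.011, and the HLA-F difference from -0.27 to 0.065. The cause was not tested. Depth is unknown, so it cannot be said which low values it limits.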

Other observations

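Of the ligands that NK and T cells read beside class I molecules, 4 of 12 tested rose and 4 fell in KYSE410, fewer in all than the 83.1% of all genes called there (31.2% higher and 51.9% lower). CD274, which encodes PD-L1, averaged 8.73 ± 0.349 FPKM in KYSE410 hypoxia and 35.7 ± 2.41 FPKM in KYSE410 normoxia (SD, n = 3), a fall of 1.91 on the log2 scale. PVR, a ligand of TIGIT and DNAM-1, fell by 1.74, PDCD1LG2, which encodes PD-L2, fell by 1.72, and the NKG2D ligand gene ULBP2 rose by 1.27 (limma adjusted p at most 2.327e-07). In KYSE410 hypoxia and normoxia, PVR averaged 12.2 and 43.0 FPKM, and PDCD1LG2 averaged 0.24 and 3.09 FPKM. At the PDCD1LG2 level the pseudocount of 1 understates the change, so these 2 log2 values are not alike in fold change. CD274 stayed at or below 0.208 FPKM in every KYSE150 library. In KYSE150, where 23.5% of all genes rose and 38.8% fell, 4 of 12 rose and 5 fell: the NKG2D ligand genes MICA and MICB rose by 1.36 and 0.68, while ULBP1 fell by 1.65 and PVR by 1.31 (limma adjusted p at most 7.594e-04). MICA averaged 8.47 FPKM in KYSE410 hypoxia and 8.02 FPKM in KYSE410 normoxia, and 17.4 FPKM in KYSE150 hypoxia and 6.20 FPKM in KYSE150 normoxia. PVR fell in both lines.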
